A study of Homo sapiens with 12 samples.

Results

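The response of U266 cells to dihydroartemisinin (DHA) was described from the 6 U266 libraries of a 12-library series, 3 from cells treated with DHA and 3 from cells given the same amount of its solvent, DMSO. U266 is an established human multiple myeloma cell line, labelled as bone marrow and as wild type (WT). DHA was given at its IC50, the dose that lowers the measured viability of the culture by 50%, and the cells were collected after 12 h. The sources used here do not give the concentration, and the 6 libraries of the second myeloma line are not analysed here. The labels do not say that the replicates came from separate cultures, so the p-values measure the spread between these libraries, which may be technical.

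DHA, into which artemisinin drugs are converted in the body, carries an endoperoxide bridge that is opened by ferrous iron and heme, which yields reactive radicals that alkylate proteins and lipids. Iron-dependent lipid peroxidation can end in ferroptosis, which cells limit through cystine uptake, glutathione and the lipid peroxidase GPX4. Myeloma cells are malignant plasma cells that secrete large amounts of immunoglobulin and depend on protein folding, iron supply and a set of plasma cell transcription factors.

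Values are FPKM, read fragments scaled for transcript length and library depth, so that levels can be compared between genes. Differences are log2 changes, the mean of log2(FPKM + 1) in DHA minus that in DMSO, given with their standard error (SE). This scale understates the change of genes at low levels. A gene was tested if it reached 1 FPKM in at least 3 of the 6 libraries and was called changed at an adjusted p under 0.05 in limma, a linear model fitted over all 10422 tested genes with the Benjamini-Hochberg adjustment.

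DHA replicate 3 stood apart from the other 5 libraries. It held 18399 genes above 0, against 14682 to 14992 in the others, at a depth of 16.4 M reads in genes (M, mega), within the range of 10.3 to 21.8 M over all 6. Of its read counts up to 20, recovered from the FPKM values, 52.1% were even, against 77.2% to 79.3% in the others. Whether reads were counted alike in all libraries was not tested. Of 2610 genes at 0 in the other 5 libraries, DHA replicate 3 had 2032 (77.9%) above 0, at a median of 0.309 FPKM over the 2610. Among tested genes it lay above the mean of DHA replicates 1 and 2 by a median of 0.30 on the log2 scale for genes under 1 FPKM in DMSO, and below it by a median log2 difference of -0.09 for genes over 100 FPKM. SPIB, a B cell transcription factor, is an example of a low gene. It was at 0.475, 0.73 and 2.59 FPKM in DHA replicates 1 to 3. It was not called with all libraries (log2 change -0.02, adjusted p = 0.955) and was called lower without DHA replicate 3 (-0.41, adjusted p = 0.0293). Counts below are therefore given with all 6 libraries and without DHA replicate 3. The first principal component, with 71.6% of the variance, separated the DHA from the DMSO libraries.

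**Figure D1:**
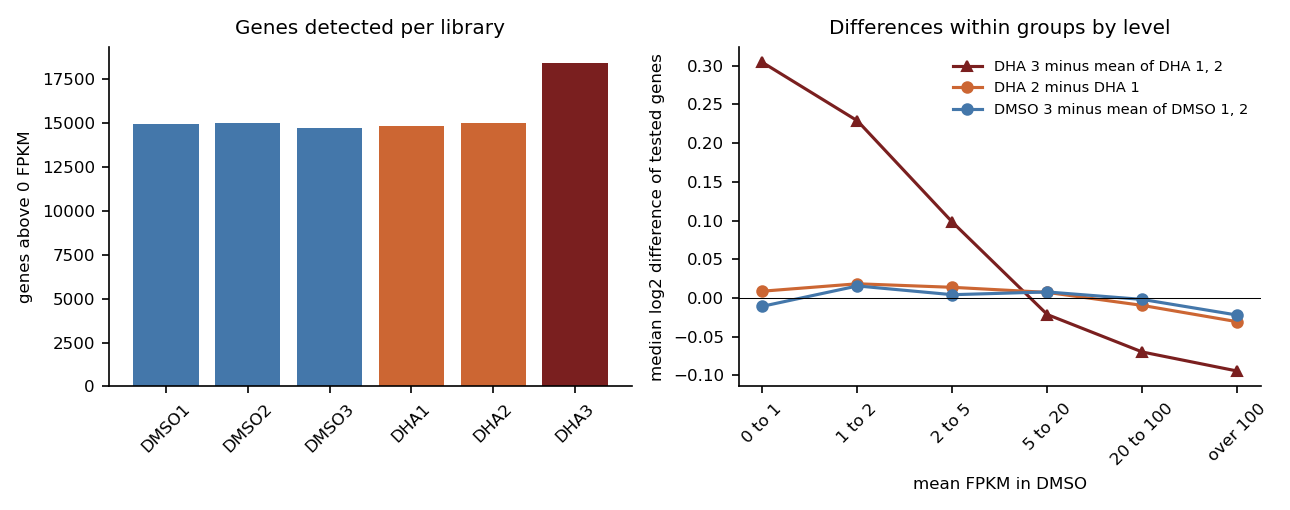
Left, genes above 0 FPKM in each U266 library (bars). Right, median log2 difference of tested genes within a group (y axis) by mean FPKM in DMSO (x axis, 6 level classes), for DHA replicate 3 against replicates 1 and 2, and for the matching comparisons within DHA and within DMSO. DHA replicate 3 has 18399 genes above 0 and falls from 0.30 in the lowest class to -0.09 in the highest, while the other lines stay near 0.

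U266 cells carried most of the plasma cell markers looked for. In the DMSO libraries the surface proteoglycan SDC1 (CD138) averaged 192 ± 5.15 FPKM (SD, n = 3), TNFRSF17 (BCMA) 375 ± 8.31 FPKM, and the transcription factors IRF4, XBP1 and PRDM1 lay at 179 ± 6.11, 264 ± 5.73 and 35.6 ± 2.42 FPKM. SLAMF7 and MZB1 were low, at 3.32 ± 0.141 and 2.83 ± 0.504 FPKM. CD38 lay between 0.223 and 0.925 FPKM over the 6 libraries and was not tested, so this marker is all but absent. The summed FPKM of 14 T and NK cell markers was 23.3 in DHA replicate 3 and at most 3.8 in each of the other libraries. The 12 monocyte and macrophage markers summed to 14.2 FPKM in DHA replicate 3 and at most 2.3 elsewhere, and the 11 B cell markers in the table to 32.7 against at most 11.2. The part of these markers in the results was not tested.

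DHA moved a large share of the transcriptome by small amounts and a small set of genes by large amounts. Of the 10422 genes, 4241 (40.7%) were called, 2203 higher (21.1%) and 2038 lower (19.6%). The median log2 change was 0.40 among the higher genes and -0.35 among the lower ones, and the median over all tested genes was 0.02. Only 135 higher and 36 lower genes reached a log2 change of 1 in size, and 25 higher genes and no lower gene reached 2. The extremes were thus rises. Without DHA replicate 3, 4375 genes (42%) were called, 2224 higher (21.3%) and 2151 lower (20.6%). Of the 2203 higher genes 2026 were called in that fit too, as were 1836 of the 2038 lower genes. All 135 and all 36 of the larger changes were called again, and no called gene turned its sign. The share called lower was larger among abundant genes. It was 3.76% at a mean of 0 to 2 FPKM, 18.7% at 5 to 20, 39% at 20 to 100 and 37% over 100 FPKM. Without DHA replicate 3 these shares were 10.4%, 19%, 35.15% and 33.6%. The shares of all tested genes given beside the lists below do not account for level. Fewer cells of a kind and less RNA per cell cannot be told apart in these bulk samples, and all values are relative to the library as a whole.

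**Figure D2:**
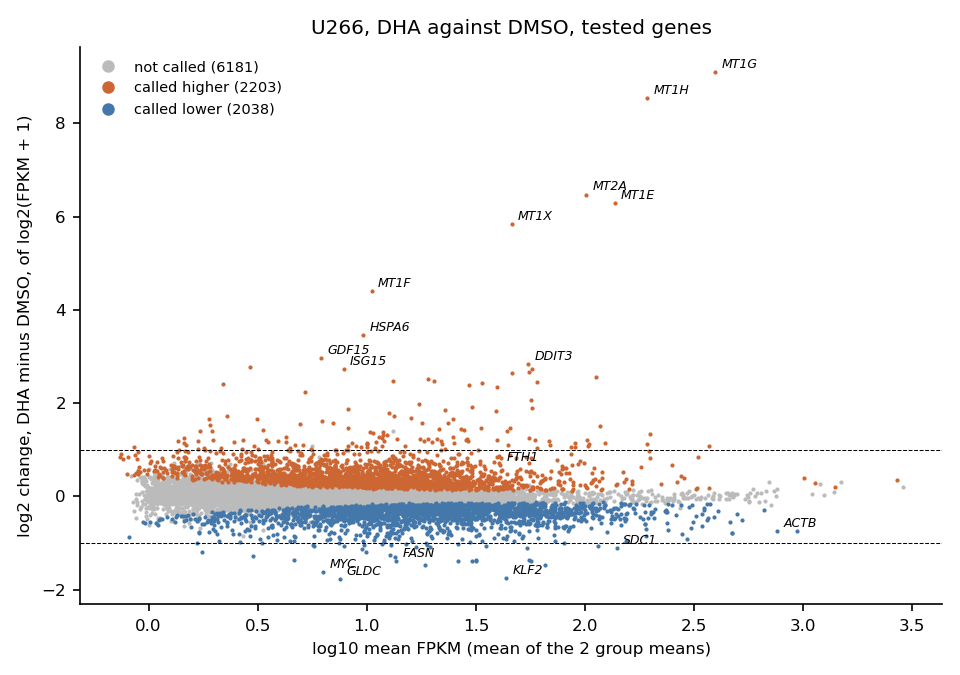
Log2 change between DHA and DMSO (y axis) against the log10 of the mean FPKM (x axis) for the tested U266 genes. Orange points are called higher (2203), blue points lower (2038), grey points not called, and dashed lines mark a log2 change of 1 in each direction; 6 metallothionein genes lie above every other gene, between 4.40 and 9.09.

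The largest rises were in metallothioneins, small cysteine-rich proteins that bind zinc, copper and cadmium and are switched on by the metal-sensing factor MTF1. MT1G was at 0.281, 0.733 and 0.368 FPKM in DMSO replicates 1 to 3 and at 810.1, 801 and 755 FPKM in DHA replicates 1 to 3. MT1H was at 0, 0.127 and 0 FPKM in DMSO and at 412, 384 and 362 FPKM in DHA. MT2A went from 0.851, 2.04 and 1.11 FPKM to 205, 204 and 196 FPKM. These genes were close to silent in every DMSO library and among the more abundant transcripts in every DHA library, with no overlap between the groups, as for 27.6% of all tested genes in this direction. The log2 changes were 9.09 (SE 0.10, adjusted p = 1.9e-12) for MT1G, 8.54 (SE 0.07, adjusted p = 2.55e-13) for MT1H and 6.47 (SE 0.14, adjusted p = 6.5e-10) for MT2A. MT1E rose by 6.29, from a mean of 2.49 ± 0.383 to 272 ± 19.8 FPKM, and MT1X by 5.84, from 0.629 ± 0.246 to 91.6 ± 8.49 FPKM (n = 3 each). MT1F rose by 4.40 to 21.1 ± 0.514 FPKM, and MT1A by 2.47 to 22.8 ± 2.96 FPKM.

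MT1B and MT1HL1 were at 0 in all 3 DMSO libraries. Against a floor of 3 reads per DMSO library, MT1B was at least 9.95-fold higher and MT1HL1 at least 11.04-fold higher in DHA. The metallothionein genes together made up 0.00246% to 0.00468% of the summed FPKM of each DMSO library and 0.749% to 0.799% of each DHA library. Their sequences are close to one another, so reads may have been shared among them, and the split between single members is less certain than the rise of the family. MT1M was not tested and lay at 0 in 5 libraries and at 0.388 FPKM in DHA replicate 3. MT1B, MT1F, MT1G, MT1H, MT1HL1 and MT1X passed the filter only through the DHA libraries, so their being higher in DHA was set by the filter.

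A zinc exporter rose with them. SLC30A1, the plasma membrane exporter that lowers cytosolic zinc and is itself a target of MTF1, was at 13.7, 13.4 and 15.3 FPKM in DMSO and at 102, 109 and 88.4 FPKM in DHA (log2 change 2.74, SE 0.08, adjusted p = 5.92e-09). MTF1 rose by 0.40 (11.6 ± 0.562 to 15.5 ± 0.352 FPKM). The importer SLC39A14, which also carries iron, rose by 0.48, while SLC39A8, another zinc and iron importer, which was kept in the iron list, fell by 0.43. The Golgi exporter SLC30A6 rose by 0.30. Of the 21 tested members of the metallothionein and zinc list, 13 were called higher, none lower and 8 neither, with 12 higher without DHA replicate 3, against 21.1% of all tested genes called higher. With a filter over the 5 libraries other than DHA replicate 3, which drops the 5 list members that passed only through DHA, 8 were called higher, and 7 without DHA replicate 3. The 8 members called neither with all libraries include SLC39A1, SLC39A3, SLC39A6, SLC39A9 and SLC39A10, importers with log2 changes between -0.11 and -0.01.

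The MT2A, MT1G, MT1H and MT1X genes lie on chromosome 16. In GENCODE release 29 on GRCh38, MT2A spans positions 56608199 to 56609497 on the plus strand and MT1G spans 56666731 to 56668065 on the minus strand, and both are protein-coding. The 250 bases before the RefSeq start of 3 members are shown because these promoters share the short letters of the metal response element and the 3 genes rose together. Capitals mark every match to TGCACNC or TGCGCNC on either strand, and overlapping matches run together. The sequences are from RefSeq on GRCh38.p14, at chr16:56669564-56669813, chr16:56608334-56608583 and chr16:56682220-56682469, all on the plus strand. The RefSeq start of MT2A lies downstream of the GENCODE start given above, so its window falls within the GENCODE span. The end of the MT1X window overlaps the GENCODE span of MT1X, which starts at 56682424.
MT1H: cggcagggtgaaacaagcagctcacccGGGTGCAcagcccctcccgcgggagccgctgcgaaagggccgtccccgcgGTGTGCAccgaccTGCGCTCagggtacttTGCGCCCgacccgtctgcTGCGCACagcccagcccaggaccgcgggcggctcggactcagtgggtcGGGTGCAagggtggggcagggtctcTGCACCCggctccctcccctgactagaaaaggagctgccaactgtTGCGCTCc
MT2A: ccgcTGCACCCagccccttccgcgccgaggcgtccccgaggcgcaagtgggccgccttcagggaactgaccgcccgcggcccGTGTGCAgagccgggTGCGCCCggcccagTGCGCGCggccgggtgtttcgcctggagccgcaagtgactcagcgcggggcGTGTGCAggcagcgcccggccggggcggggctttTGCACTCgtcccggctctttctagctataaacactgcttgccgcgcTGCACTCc
MT1X: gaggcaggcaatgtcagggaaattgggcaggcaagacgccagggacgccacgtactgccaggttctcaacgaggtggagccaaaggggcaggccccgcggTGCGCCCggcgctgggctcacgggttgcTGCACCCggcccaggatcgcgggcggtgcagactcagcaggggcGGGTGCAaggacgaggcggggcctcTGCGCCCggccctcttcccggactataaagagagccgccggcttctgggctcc
The scan found 8 matches for MT1H, 7 for MT2A and 4 for MT1X. All 4 tested metallothionein genes with a promoter in the table held at least 1 match. The letters are common, being present in 33.9% of the 8590 tested genes with a promoter sequence, in 31.2% of those called higher and in 35.7% of those called lower, and in 24.7% of all 27305 promoters in the table. A match is a description of the letters and not a measured binding site.

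Nearly all tested targets of ATF4, the main transcription factor of the integrated stress response, rose. In this pathway the phosphorylation of eIF2alpha by stress kinases slows translation while favouring that of ATF4, which then drives genes of amino acid uptake, amino acid synthesis and cell death. Of 44 tested ATF4 targets, 42 were called higher, 1 lower and 1 neither, against 21.1% of all tested genes called higher. The median log2 change was 1.17 over the 44 and 0.02 over all genes. Without DHA replicate 3 the counts were the same, 42 and 1, with a median of 1.21. Of the 44, 26 rose by at least 1 on the log2 scale, out of 135 such genes in all. BBC3, GDF15 and JDP2 passed the filter only through the DHA libraries.

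ATF4 itself was at 223, 249.6 and 233 FPKM in DMSO and at 443, 419 and 399 FPKM in DHA. Its log2 change was 0.84 (SE 0.06, adjusted p = 4.18e-06), below the median of its target list. DDIT3 (CHOP), the death-associated transcription factor of the pathway, was at 11.7, 12.7 and 13.9 FPKM in DMSO and 97.8, 96.9 and 96.4 FPKM in DHA. This was a rise of 2.84 (SE 0.06, adjusted p = 5.23e-10) with replicate values that lay within 2 FPKM of each other in DHA. DDIT3 spans 57516588 to 57521737 on the minus strand of chromosome 12 (GRCh38). ATF3, a stress-induced repressor and activator, rose by 2.48 (5.49 ± 0.63 to 35.2 ± 1.43 FPKM). TRIB3, a pseudokinase that restrains AKT and ATF4, rose by 2.64 (12.1 ± 1.02 to 80.4 ± 2.6 FPKM). PPP1R15A (GADD34), which recruits the phosphatase that reverses eIF2alpha phosphorylation, rose by 2.46 (17.9 ± 0.655 to 103 ± 5.08 FPKM).

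Of 14 tested genes of a list of FOXO targets and mTOR inhibitors, 6 were called higher and 1 lower (8 and 1 without DHA replicate 3). The shares of all tested genes were 21.1% and 19.6%. SESN2, a leucine sensor that restrains mTORC1, was at 13.3, 14.5 and 15.2 FPKM in DMSO and at 95.7, 93.7 and 98.5 FPKM in DHA (log2 change 2.66, SE 0.06, adjusted p = 5.23e-10). DDIT4 (REDD1), which restrains mTORC1 through TSC2, rose by 2.55 (32 ± 1.77 to 192 ± 8.56 FPKM). EIF4EBP1, an mTORC1 substrate that blocks cap binding, rose by 1.52. Secreted factors of the response rose as well. GDF15, a circulating stress cytokine, was at 0.757, 0.921 and 0.264 FPKM in DMSO and 10.5, 11.8 and 12.7 FPKM in DHA (log2 change 2.96, SE 0.15, adjusted p = 3.4e-07). INHBE, an activin subunit, rose by 2.42 and STC2, a secreted glycoprotein, by 2.38. TNFRSF10B, the death receptor DR5, rose by 1.61 (2.56 ± 0.175 to 9.85 ± 0.596 FPKM).

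Amino acid genes of the ATF4 programme rose as well. The serine synthesis enzymes PHGDH, PSAT1 and PSPH rose by 0.75, 1.34 and 0.73, and SHMT2 and MTHFD2, mitochondrial enzymes that pass serine carbon to folate, by 1.15 and 1.08. CTH, which makes cysteine from cystathionine, rose by 1.97 (6.42 ± 0.622 to 28.1 ± 1.58 FPKM). ASNS, asparagine synthetase, was low throughout, at 1.41, 1.63 and 1.7 FPKM in DMSO and 4.61, 3.6 and 3.74 FPKM in DHA (log2 change 0.94, SE 0.12, adjusted p = 0.000162). The member that went the other way was ALDH18A1, the enzyme that starts proline synthesis, which fell by 0.50 (23 ± 0.971 to 15.9 ± 0.473 FPKM). ERO1A, an oxidase of the endoplasmic reticulum (ER), was not called (-0.06, adjusted p = 0.472). Of 20 cytosolic aminoacyl-tRNA synthetases, 12 were called higher and 4 lower, and without DHA replicate 3 the same numbers were 12 and 2. Among all tested genes, 21.1% were called higher and 19.6% lower. GARS, for glycine, rose by 0.98 (132 ± 2.72 to 261 ± 5.73 FPKM), while VARS, for valine, fell by 0.74 and FARSA, a subunit of the phenylalanine enzyme, by 0.45.

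Promoters of CHAC1 and ATF3 are shown because both genes rose with ATF4 and hold the letters TGATGNAA of the ATF4 and C/EBP composite element, in capitals. They lie at chr15:40953221-40953470 and chr1:212565157-212565406, both on the plus strand of GRCh38.p14 (RefSeq). In CHAC1 the match is on the reverse strand. The CHAC1 window falls within its GENCODE span, which starts at 40952962. That of ATF3 overlaps its GENCODE span, which starts at 212565334.
CHAC1: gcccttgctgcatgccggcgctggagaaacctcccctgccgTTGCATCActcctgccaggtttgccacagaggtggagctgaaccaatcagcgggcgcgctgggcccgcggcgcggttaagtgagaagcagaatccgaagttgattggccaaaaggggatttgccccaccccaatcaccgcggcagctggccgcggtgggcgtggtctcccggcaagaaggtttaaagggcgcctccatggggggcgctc
ATF3: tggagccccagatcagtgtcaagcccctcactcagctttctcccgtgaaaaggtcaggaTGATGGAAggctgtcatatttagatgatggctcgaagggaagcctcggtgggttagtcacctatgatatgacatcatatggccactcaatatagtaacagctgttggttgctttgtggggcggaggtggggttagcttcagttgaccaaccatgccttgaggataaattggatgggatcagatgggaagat
Of 35 ATF4 targets with a promoter sequence, 4 held the letters (11.4%), against 1.43% of the 8590 tested genes with a promoter. The share was 2.16% among genes called higher 1.43% among genes called lower and 3.19% over all 27305 promoters in the table, on either strand.

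**Figure D3:**
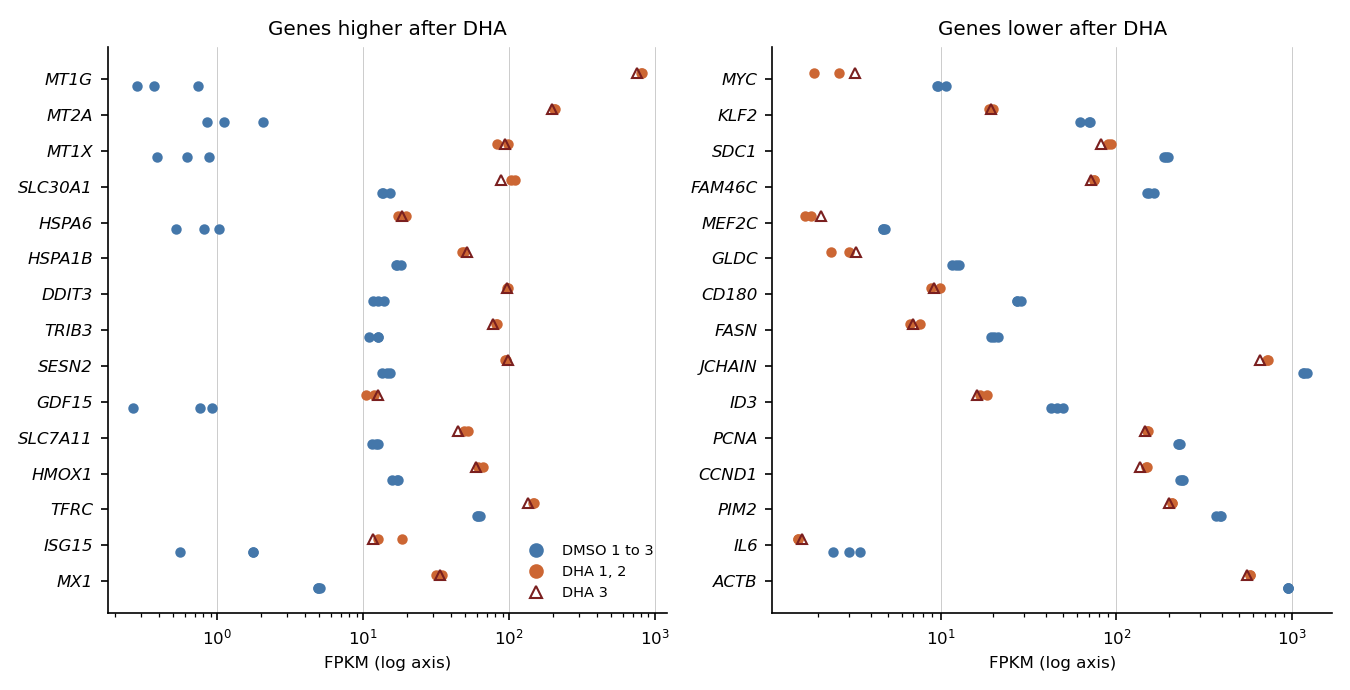
FPKM (x axis, log scale) of 30 genes in each U266 library, genes higher after DHA on the left and lower on the right. Blue dots are DMSO replicates, orange dots DHA replicates 1 and 2, and open triangles DHA replicate 3, which lies on the same side of the DMSO values as the other DHA libraries for every gene shown.

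Genes of the unfolded protein response and ER chaperones moved both ways. Of 33 genes of the unfolded protein response, 9 were called higher and 12 lower (9 and 11 without DHA replicate 3), with a median of -0.08. The shares of all tested genes were 21.1% and 19.6%. HSPA5 (BiP), the main ER chaperone, was at 401, 396 and 395 FPKM in DMSO and 359, 356 and 347 FPKM in DHA. Its fall was small, -0.16 (SE 0.05, adjusted p = 0.02), and was not called under quantile normalization (-0.08). CALR, the calcium-binding chaperone of glycoproteins, fell by 0.72 (298 ± 2.69 to 180.5 ± 7.8 FPKM), and HSP90B1 (GRP94) by 0.45. XBP1, which drives ER expansion in plasma cells, fell by 0.33, and EIF2AK3, which encodes the ER stress kinase PERK, by 0.45. Some stress sensors and partners rose. ERN1, which encodes IRE1alpha, was at 12.2, 10.7 and 11.5 FPKM in DMSO and 38.3, 40.1 and 36.9 FPKM in DHA (log2 change 1.67, SE 0.06, adjusted p = 3.6e-08). DNAJB9, a BiP cochaperone that restrains IRE1alpha, rose by 1.26 (32.2 ± 1.73 to 78.4 ± 2.82 FPKM), and HERPUD1, of ER-associated degradation, by 0.51.

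Cytosolic heat shock genes rose in part. HSF1 drives these genes when unfolded protein builds up in the cytosol. Of 25 tested members, 14 were called higher and 4 lower, against 21.1% and 19.6% of all tested genes. Without DHA replicate 3 the counts were 15 and 2, with 2 lower also without DMSO replicate 2, DMSO replicate 3 or DHA replicate 2. HSPA6, an HSP70 gene that is nearly silent without stress, was at 1.02, 0.811 and 0.523 FPKM in DMSO and 19.6, 17.4 and 18.5 FPKM in DHA. It had the largest rise outside the metallothioneins (3.46, SE 0.11, adjusted p = 1.24e-08). HSPA1B rose by 1.46 (17.3 ± 0.682 to 49.5 ± 2.1 FPKM) and HSPA1A by 1.17 (1.14 ± 0.461 to 3.78 ± 0.552 FPKM), and reads may be shared between these near-identical copies. The cochaperones DNAJB4, BAG3 and DNAJB1 rose by 0.99, 0.96 and 0.91. The constitutive chaperones HSPA8 and HSP90AB1 were not called (0.02 and 0.03), and the small heat shock protein HSPB1 fell by 0.49 (116 ± 1.32 to 82.2 ± 4.95 FPKM).

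The HSPA6 promoter is shown for the letters of the heat shock element, in capitals. It lies at chr1:161524290-161524539 on the plus strand (RefSeq, GRCh38.p14).
HSPA6: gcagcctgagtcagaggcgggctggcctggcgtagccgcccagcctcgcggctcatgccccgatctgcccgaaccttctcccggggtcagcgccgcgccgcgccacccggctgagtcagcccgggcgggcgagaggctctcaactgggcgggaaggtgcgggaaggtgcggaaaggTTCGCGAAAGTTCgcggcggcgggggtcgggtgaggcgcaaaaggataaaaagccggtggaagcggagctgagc
Searched on both strands were GAA, NN, TTC, NN, GAA in a row and TTC, NN, GAA, NN, TTC in a row. Either was found in 5 of 23 heat shock genes with a promoter (21.7%) and in 24 of the 8590 tested genes (0.279%), and in 0.44% of all 27305 promoters in the table.

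Iron genes moved in a mixed pattern. TFRC, the transferrin receptor that brings iron into the cell, was at 62.7, 60.7 and 60.3 FPKM in DMSO and 147, 145 and 135 FPKM in DHA (log2 change 1.20, SE 0.05, adjusted p = 7.44e-08). The DHA values were all more than 70 FPKM above the DMSO values. FTH1, the ferritin heavy chain that stores iron, was at 27.8, 38.4 and 28.4 FPKM in DMSO and 49.7, 48 and 53.5 FPKM in DHA (0.67, SE 0.11, adjusted p = 0.00064). FTL was among the most abundant transcripts, at 2134, 2748 and 2226 FPKM in DMSO and around 3023 ± 38.6 FPKM in DHA, and its rise of 0.36 (adjusted p = 0.0174) was not called under quantile normalization (0.04) or without DMSO replicate 1, DMSO replicate 3 or DHA replicate 2. Ferritin mRNAs have many processed pseudogene copies, so reads may be shared. NCOA4, the receptor that delivers ferritin to lysosomes, fell by 0.21 (45.3 ± 1.69 to 39.1 ± 2.72 FPKM). SLC40A1, the iron exporter ferroportin, was not called (0.05). SLC25A37, the mitochondrial iron importer, rose by 0.77, while SLC39A8, a zinc and iron importer, fell by 0.43. Over the 19 tested iron genes, 7 were called higher and 5 lower, and 7 and 4 without DHA replicate 3, against 21.1% and 19.6% of all tested genes. The number called lower was 1 without DMSO replicate 2 and 3 without DHA replicate 1.

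Among heme genes HMOX1 rose most. This gene encodes heme oxygenase, which frees iron from heme, and was at 15.6, 17.1 and 17.2 FPKM in DMSO and 66, 60.8 and 59 FPKM in DHA (log2 change 1.83, SE 0.06, adjusted p = 1.24e-08). BACH1, the heme-sensing repressor of HMOX1, rose too, by 0.76 (24.2 ± 1.9 to 41.6 ± 2.11 FPKM). Of the biliverdin reductases, which act next in the pathway, BLVRA fell by 0.61 and BLVRB was called higher with all libraries. The constitutive HMOX2 fell by 0.43. The heme synthesis enzymes ALAS1, CPOX and UROD were not called, with log2 changes between -0.12 and 0.11, FECH, which inserts the iron, rose by 0.25, and UROS, an earlier enzyme of the pathway, fell by 0.30. Of 18 tested heme genes, 4 were called higher and 4 lower (4 and 5 without DHA replicate 3), numbers near what the 21.1% and 19.6% of all tested genes would give.

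Several genes of cystine and glutathione supply rose, and the lipid peroxidase GPX4 was not called. SLC7A11, the cystine importer, was at 12.6, 11.5 and 12.2 FPKM in DMSO and 49.2, 52.4 and 44.9 FPKM in DHA (log2 change 1.93, SE 0.06, adjusted p = 1.62e-08), and its partner SLC3A2 rose by 1.15 (76.6 ± 0.879 to 172 ± 7.21 FPKM). The glutathione synthesis subunits GCLM and GCLC rose by 0.56 and 0.43, and the reductase GSR by 0.42. CHAC1, which degrades glutathione, rose as well, from 9.26, 10.7 and 7.97 FPKM to 42.4, 34.7 and 32.3 FPKM (1.86, SE 0.11, adjusted p = 1.02e-06). GPX4 was at 184, 212 and 182 FPKM in DMSO and 180.5, 176 and 158 FPKM in DHA. The log2 change of -0.17 (SE 0.07, adjusted p = 0.0909) was not called, although its DHA values all lay below its DMSO values, as for 23.9% of all tested genes. AIFM2 (FSP1), which regenerates ubiquinol as a radical trap, rose by 0.40. ACSL4, which loads polyunsaturated fatty acids into lipids, was not called (-0.17, adjusted p = 0.0741). The lipid-side genes LPCAT3 and SCD were likewise not called, nor was VDAC2. SAT1, a polyamine enzyme that promotes lipid peroxidation, rose by 0.81.

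By list, 11 of 27 tested ferroptosis suppressors were called higher and 5 lower, and 10 of 24 drivers were called higher and 4 lower. Without DHA replicate 3 these were 11 and 5, and 10 and 5. The median changes were 0.03 and 0.09, against 0.02 over all genes. Among all tested genes, 21.1% were called higher and 19.6% lower. The lists share members with the ATF4 and NRF2 lists, among them SLC7A11, CHAC1, ATF3 and FTH1. In the glutathione list 7 of 22 tested genes were called higher and 2 lower in both fits, and the members not called included GSS, GSTP1, MGST2 and MGST3.

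**Figure D4:**
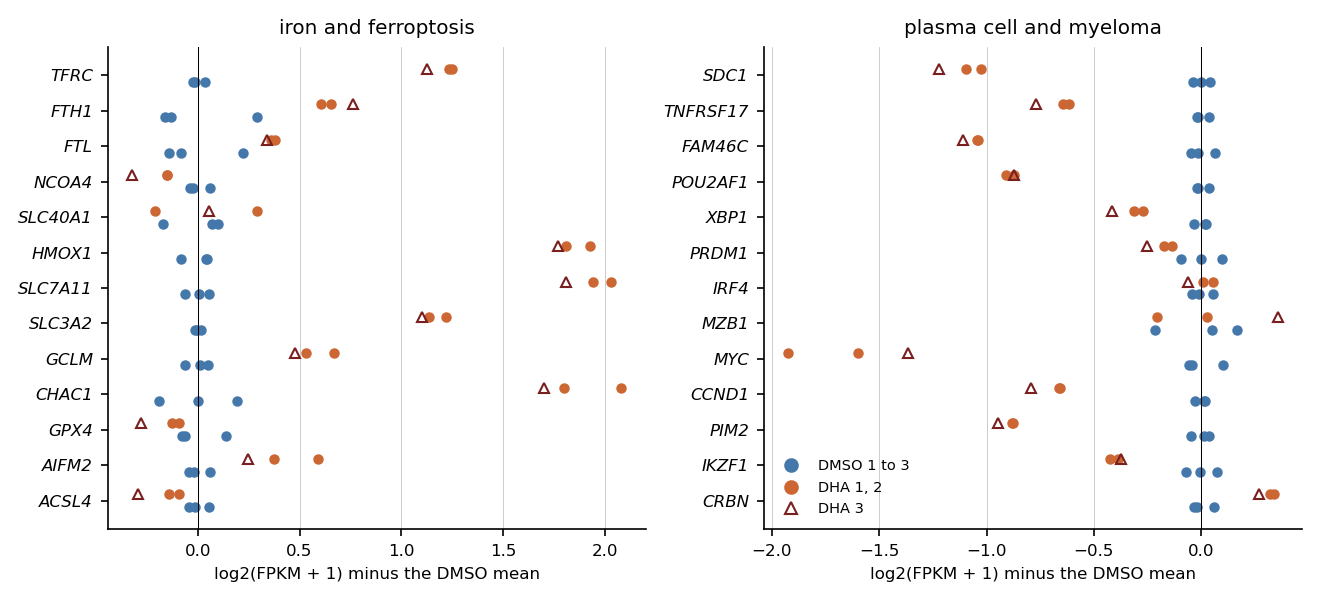
Log2(FPKM + 1) of each U266 library minus the mean of the DMSO libraries (x axis) for iron and ferroptosis genes (left) and for plasma cell and myeloma genes (right). Blue dots are DMSO replicates, orange dots DHA replicates 1 and 2, open triangles DHA replicate 3; HMOX1, SLC7A11 and CHAC1 lie farthest to the right, and MYC and SDC1 farthest to the left.

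NRF2, the factor that answers electrophiles and oxidants, had 15 of 29 tested targets called higher and 6 lower. The shares of all tested genes were 21.1% and 19.6%. Without DHA replicate 3 the counts were 15 and 4, with 3 lower without DMSO replicate 2 or DMSO replicate 3. NFE2L2, the gene of NRF2 itself, rose by 0.47 (16 ± 0.975 to 22.4 ± 1.27 FPKM). TXNRD1, thioredoxin reductase, rose by 0.41 and ME1, a NADPH source, by 0.74. OSGIN1 went from 0.504 ± 0.166 to 4.08 ± 1.2 FPKM (1.74) and passed the filter only through the DHA libraries. NQO1, a standard readout of NRF2, was at 5.94, 7.12 and 6.59 FPKM in DMSO and 7.98, 7.17 and 5.88 FPKM in DHA. These values overlap and NQO1 was not called (0.08, adjusted p = 0.584). TALDO1, of the pentose phosphate pathway, fell by 0.29, and the carbonyl reductase CBR1 by 0.43. NFE2L1, the related factor that drives proteasome genes, rose by 1.12 (122 ± 4.17 to 265 ± 12.2 FPKM). Of 42 proteasome genes in the list, which holds NFE2L1, 5 were called higher and 9 lower (8 and 7 without DHA replicate 3), with the immunoproteasome subunit PSMB8 falling by 0.68.

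More autophagy genes rose than fell. Of 36 tested members, 20 were called higher and 2 lower, against 21.1% and 19.6% of all tested genes. The median log2 change was 0.30, and the counts were 18 and 2 without DHA replicate 3. MAP1LC3B, the LC3 that coats autophagosomes, was at 29, 27.4 and 27.5 FPKM in DMSO and 61.1, 62.7 and 59.5 FPKM in DHA (log2 change 1.10, SE 0.05, adjusted p = 9.71e-08). GABARAPL1, its relative, rose by 1.04, the initiating kinase ULK1 by 0.91 and the receptors CALCOCO2 and SQSTM1 by 0.73 and 0.58. NCOA4 and GABARAPL2 were the members called lower, and GABARAPL2 was not called without DHA replicate 3 (-0.15). Of 35 lysosome genes, 5 were called higher and 9 lower (5 and 10 without DHA replicate 3), among them CTSZ, a cathepsin, which fell by 0.52, and CTSD, which rose by 0.30.

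Most tested interferon-stimulated genes rose. These genes are normally induced by type I interferon through STAT and IRF factors. Of 26 tested members, 19 were called higher and 4 lower, against 21.1% and 19.6% of all tested genes. The median log2 change was 0.80, and the counts were 20 and 4 without DHA replicate 3. Another 11 of the 37 were too low to test, and IFI27, IFI44, IFIT3, OASL and PARP9 passed only through the DHA libraries, so the count leans towards rises. ISG15, a ubiquitin-like modifier, was at 0.559, 1.75 and 1.76 FPKM in DMSO and 18.5, 12.7 and 11.7 FPKM in DHA (log2 change 2.72, SE 0.22, adjusted p = 9.41e-06). MX1, an antiviral GTPase, rose by 2.52 (4.93 ± 0.102 to 33.1 ± 1.67 FPKM), and USP18, which removes ISG15 and damps the receptor, by 2.24. IRF7, a transcription factor that amplifies the response, rose by 1.72. The members that fell averaged 20.7 (SAMD9) to 165 FPKM (BST2) in DMSO. OAS1 fell by 0.28 (110.1 ± 0.199 to 90.3 ± 2.98 FPKM), OAS3 by 0.24, BST2 by 0.37 and SAMD9 by 0.62. HLA and antigen presentation genes did not rise with them: of 20, none was called higher and 11 were called lower (12 without DHA replicate 3). HLA-DRA, a class II chain, fell by 0.51 (426 ± 4.3 to 300.0 ± 12.2 FPKM), CIITA, the class II activator, by 0.59 and B2M, the class I light chain, by 0.24.

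Most tested plasma cell identity genes fell. Of 20 tested members, 12 were called lower and 1 higher, against 19.6% and 21.1% of all tested genes, with a median of -0.37. Without DHA replicate 3 the counts were 12 and 2 and the median -0.47. SDC1 was at 187, 198 and 192 FPKM in DMSO and 93.7, 89.5 and 81.8 FPKM in DHA (log2 change -1.11, SE 0.06, adjusted p = 3.1e-07). FAM46C (TENT5C), a poly(A) polymerase that stabilises secretory mRNAs and is often mutated in myeloma, fell by 1.06 (156 ± 6.47 to 73.8 ± 1.94 FPKM). The B lineage activators POU2F2 and POU2AF1 fell by 1.01 and 0.88, and MEF2C by 1.00. JCHAIN, the joining chain of secreted antibodies, was at 1205, 1169 and 1154 FPKM in DMSO and 732, 715 and 657 FPKM in DHA (-0.75, SE 0.06, adjusted p = 1.35e-05). TNFRSF17 (BCMA), a survival receptor and drug target, fell by 0.68 (375 ± 8.31 to 234 ± 13.4 FPKM).

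The core regulators of the list had small changes. IRF4, on which myeloma cells depend, was at 186, 174 and 177 FPKM in DMSO and 180.0, 186 and 171 FPKM in DHA, and was not called (0.00, SE 0.05, adjusted p = 0.998). PRDM1 (BLIMP1) fell by 0.19 (adjusted p = 0.0287), a call lost without DHA replicate 3 (-0.16, adjusted p = 0.0755). IKZF3 and IKZF1, the lymphoid factors degraded by lenalidomide, fell by 0.55 and 0.40. CRBN, the receptor of that drug, was the member that rose (0.31, 6.79 ± 0.269 to 8.65 ± 0.239 FPKM). Globin transcripts fell too: HBD by 1.04 (25.6 to 12 FPKM in the group means) and HBB by 0.54, and their near-identical sequences may share reads.

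MYC, the growth regulator active in most myelomas, fell from 10.8, 9.69 and 9.58 FPKM to 1.9, 2.64 and 3.27 FPKM (log2 change -1.63, SE 0.13, adjusted p = 7.57e-06). Without DHA replicate 3, its highest DHA value, the fall was -1.76. Its antagonists MXD1 and MXI1 rose by 0.71 and 0.56, and its relative MYCL fell by 0.43. KLF2, a transcription factor of lymphocyte quiescence and trafficking, was at 62.1, 70.2 and 70.5 FPKM in DMSO and 19, 19.9 and 19.3 FPKM in DHA (-1.75, SE 0.06, adjusted p = 1.61e-08). The D cyclins CCND1 and CCND2 fell by 0.70 (235 ± 4.44 to 144 ± 7.5 FPKM) and 0.52, while the D cyclin CCND3 was not called. CDKN1B (p27), which inhibits cyclin-dependent kinases, rose by 0.41 and CDKN1A (p21) by 0.40. Among immediate early genes 5 of 14 tested were called higher and 6 lower (5 and 7 without DHA replicate 3). The shares of all tested genes were 21.1% and 19.6%. JUN rose by 1.45 (14 ± 1.13 to 40.2 ± 4 FPKM) and DUSP1 by 0.76.

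The called transcripts of the IL6, STAT3 and PIM list were all lower. U266 makes IL6, a growth factor of myeloma cells. IL6 was at 2.44, 3.5 and 3.03 FPKM in DMSO and 1.54, 1.54 and 1.62 FPKM in DHA (log2 change -0.63, SE 0.13, adjusted p = 0.00326). Of 14 tested genes of the IL6, STAT3 and PIM axis, 8 were called lower and none higher (7 without DHA replicate 3). Among all tested genes, 19.6% were called lower and 21.1% higher. The kinase PIM2, which sustains translation in myeloma, fell by 0.90 (383 ± 11.4 to 204 ± 5.59 FPKM), SOCS3, a feedback inhibitor, by 0.86 and BCL3 by 0.73, while STAT3 was not called (-0.04). NF-kB targets split, with 3 called higher and 6 lower of 17 in both fits. BIRC3, an inhibitor of apoptosis, fell by 0.83 and TNFAIP3, a feedback deubiquitinase, by 0.42.

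BCL2 family members that block apoptosis included called genes that fell, MCL1 by 0.34 (264 ± 4.97 to 208 ± 10 FPKM) and BCL2L1 by 0.49, while BCL2 was not called (-0.08). Members that promote it fell as well, BIK by 0.83, BAK1 by 0.68 and BCL2L11 (BIM) by 0.66. BBC3 (PUMA) rose from 0.869 ± 0.00867 to 2.77 ± 0.843 FPKM (0.99). It passed the filter only through the DHA libraries, so its direction was set by the filter. Of 15 tested, 3 were called higher and 5 lower in both fits, against 21.1% and 19.6% of all tested genes. GADD45A, a growth arrest gene, rose by 1.68.

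**Figure D5:**
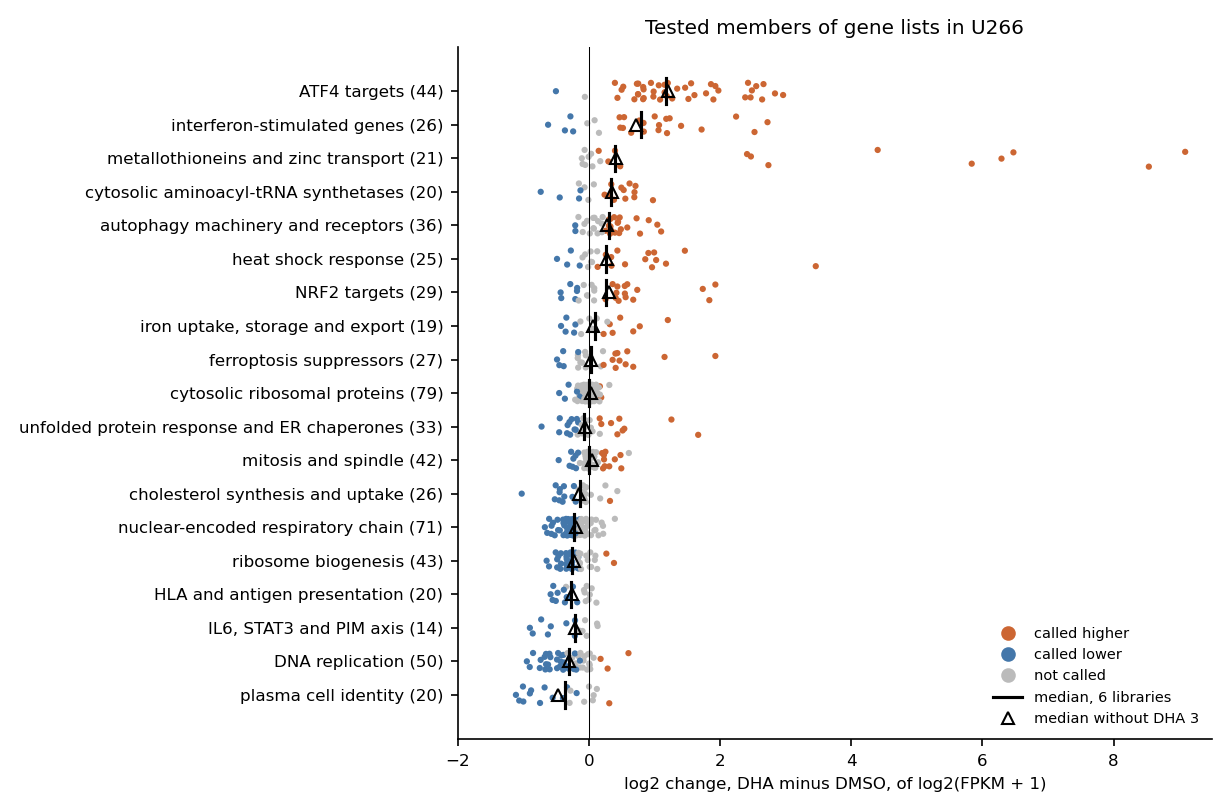
Log2 change between DHA and DMSO (x axis) of tested members of 19 gene lists, with the number tested in brackets. Orange points are called higher, blue lower and grey not called; vertical bars are medians with 6 libraries and open triangles medians without DHA replicate 3. ATF4 targets have the highest median (1.17) and plasma cell identity genes the lowest (-0.37) of the lists shown.

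Most DNA replication genes fell. Of 50 replication genes 29 were called lower and 3 higher in both fits, against 19.6% and 21.1% of all tested genes. Their median log2 change was -0.31. E2F2, a driver of S phase genes, was at 62.1, 60.7 and 64.2 FPKM in DMSO and 30.6, 33.1 and 31.8 FPKM in DHA (log2 change -0.95, SE 0.05, adjusted p = 3.49e-07). CCNE1, the cyclin of S phase entry, fell by 0.90, UHRF1, which guides DNA methylation, by 0.85, the helicase subunit MCM4 by 0.75 and the clamp PCNA by 0.60 (227 ± 2.71 to 149 ± 2.82 FPKM). RMI2, CDC6 and ORC1 were the members that rose, by 0.60, 0.28 and 0.18. Shares in the mitosis list were near those of all tested genes. There 10 of 42 tested genes were called higher and 8 lower (12 and 6 without DHA replicate 3, and 5 lower without DMSO replicate 1 or DMSO replicate 3). KIF2C and CDC20 rose by 0.48 and 0.39, PTTG1 and MKI67 fell by 0.46 and 0.24, and CDK1 and CCNB1 were not called (-0.01 and -0.05). The letters TTTGGCGC or TTTCCCGC of E2F sites were found in 14 of 41 replication genes with a promoter (34.1%) in 3.33% of all tested genes with one and in 1.96% of all promoters, on either strand.

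Many genes of ribosome biogenesis and of the respiratory chain fell by small amounts. Of 43 tested ribosome biogenesis genes, 27 were called lower and 2 higher (23 and 3 without DHA replicate 3), with a median of -0.26. Among all tested genes, 19.6% were called lower and 21.1% higher. GNL3, a nucleolar GTPase, fell by 0.65 (81.8 ± 3.24 to 51.8 ± 0.809 FPKM) and POLR1A, the large subunit of RNA polymerase I, by 0.49. Of 79 cytosolic ribosomal proteins, 72 were not called, with 2 higher and 5 lower, and 5 higher and 3 lower without DHA replicate 3. Of 71 nuclear-encoded respiratory chain subunits, 39 were called lower and none higher (38 and none without DHA replicate 3), with a median of -0.23. With voom on recovered reads 25 of the 71 were called lower. The share called lower was 19.6% of all tested genes and 39% of those with a mean of 20 to 100 FPKM. ATP5G3, of the ATP synthase ring, fell by 0.67 (26.6 ± 1.78 to 16.3 ± 0.927 FPKM) and NDUFB3, of complex I, by 0.64. Of 74 tested mitochondrial ribosomal proteins 24 were called lower and 7 higher (21 and 6). By contrast the mitochondrial chaperone HSPA9 and protease LONP1 rose by 0.68 (193 ± 5.15 to 309 ± 11.6 FPKM) and 0.53, in a list where 8 of 19 were called higher and 4 lower (5 higher without DHA replicate 1, and 2 lower without DMSO replicate 2 or DHA replicate 2).

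Of 19 tested genes of fatty acid synthesis, 3 were called higher and 5 lower (3 and 6 without DHA replicate 3), near the shares of all genes. FASN, fatty acid synthase, had the largest fall among them. It was at 20.1, 19.3 and 21.3 FPKM in DMSO and 6.67, 7.65 and 6.98 FPKM in DHA (log2 change -1.39, SE 0.07, adjusted p = 2.43e-07). Of 26 tested cholesterol genes 12 were called lower and 1 higher in both fits, against 19.6% and 21.1% of all tested genes. LSS, which forms lanosterol, fell by 0.52 and SQLE, which acts just before it, by 0.44, whereas HMGCS1 near the start of the pathway was not called (-0.05). Glucose and hypoxia genes moved both ways. The transporter SLC2A1 rose by 1.16 (6.41 ± 0.127 to 15.6 ± 1.91 FPKM) and hexokinase HK2 by 0.76, with the hypoxia targets ADM and VEGFA at 1.35 and 1.27, while PFKP, PGAM1 and LDHA fell by 0.53, 0.49 and 0.39. Of 33 tested, 12 were called higher and 9 lower (12 and 7 without DHA replicate 3).

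GLDC, the glycine cleavage enzyme, had the largest fall of the genes ranked here, from 11.6, 12.7 and 12.3 FPKM to 2.37, 3.02 and 3.31 FPKM (log2 change -1.76, SE 0.10, adjusted p = 6.15e-07). Next to it and to KLF2 and MYC stood CD180, a Toll-like receptor relative of B cells, which fell by 1.47 (27.7 ± 0.886 to 9.35 ± 0.567 FPKM), and the scaffold AHNAK, by 1.46 (97 ± 4.75 to 34.6 ± 2.22 FPKM). BMP8B, a growth factor, fell by 1.39, the water and glycerol channel AQP3 by 1.39, ID3, an inhibitor of E proteins, by 1.38, the adaptor SH2B2 by 1.38, and SEMA3C by 1.37. The ranking took only genes with all 3 DHA values below all 3 DMSO values, which 23.9% of all tested genes met. The separation of these falls was thus set by the ranking. By FPKM the greatest losses among called genes were in JCHAIN, ACTB (949.7 ± 1.87 to 568 ± 15.6 FPKM), TMSB10, HIST1H2AH, MYBL2, PIM2, QPCT and ST6GAL1.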

How the data were processed

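Per the labels' protocols, RNeasy-purified RNA went into SMARTER mRNA libraries. The authors deposited 1 table of FPKM per cell line; no aligner or counting tool is named in the labels. The submitters' processing notes name GRCm38 and mm10, mouse builds, while the rows carry 19130 human gene symbols. Of these, 18925 matched 1 gene of GENCODE release 29, whose exon lengths gave whole reads from FPKM steps (within 0.1 of a whole read for 93.8% to 94.6% of values up to 100 reads).

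The U266 table alone was used: log2(FPKM + 1), genes at 1 FPKM in at least 3 libraries, and limma 3.58.1 in R 4.3.3 with a variance trend, 3 DHA against 3 DMSO, two-sided, threshold 0.05. In simulated data for this comparison, 200 of 10422 genes were changed. Called were 60 of 100 genes changed by 0.5 and 87 of 100 changed by 1 (log2), with 7 calls among unchanged genes. Far fewer genes were changed than the 40.7% called in the data, and noise was drawn apart for each gene. The error rates may therefore differ in the data. The members and the 44 gene lists were chosen with earlier results of these data known, so their counts are descriptions. Named genes are the 12 largest rises and falls with separated groups and a mean of 5 FPKM in the higher group, a fixed set of 38 genes, up to 4 called members per list and direction, members against their list's majority, and the 8 largest gains and losses in FPKM; any other gene named was picked with its values in view. Alternatives were another pseudocount, other filters, 3 scalings, no variance trend, a replicate block, a minimum log2 change of 1 and leaving out each library. Voom on recovered reads and filters over the other 5 libraries were added after seeing the data. Same-numbered DHA and DMSO replicates did not deviate together (correlations -0.039, -0.083 and -0.025), so they were not treated as pairs. Promoters are the 250 bases before the start of RefSeq genes. Some genes of the lists are not reported here.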

Additional observations from a re-analysis of the deposited data

How the results depend on the processing

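The counts of called genes stayed within 1.5 times of 4241 under each rescaling, filter and left-out library tried. Counting only called genes with a change of at least 1 in log2(FPKM + 1) left 171, of which 135 were higher and 36 lower. Leaving out 1 library at a time gave 3397 to 4375 calls, 1731 to 2224 higher and 1643 to 2151 lower, the lowest total being without DMSO replicate 3. Quantile normalization gave 1973 higher and 2298 lower, and voom on recovered reads 2495 and 1959. The labels number the replicates without saying whether they are paired, and the samples were not treated as pairs. With a replicate block 2016 genes were called higher and 1875 lower. Of 274 named genes, 225 kept their direction and their side of the threshold in every alternative in which they could be tested. IRF4, not called, turned sign under TMM-style scaling (-0.024) and with the median change set to 0 (-0.025), and ranged from -0.027 to 0.032 when 1 library was left out. NQO1, not called, ranged from -0.0065 to 0.185, turning sign without DHA replicate 1; the cause was not tested. Called respiratory chain genes numbered 25 instead of 39 with voom. A filter over the 5 other libraries removes metallothioneins that are low in DMSO and leaves 8 of the 13 calls in that list, or 7 without DHA replicate 3. Small counts moved most when a library was left out: proteasome genes called higher numbered 3 without DHA replicate 1 or 2, lysosome genes called higher 3 without DMSO replicate 1 or 3 or DHA replicate 1, and autophagy genes called lower none without DMSO replicate 2. Genes near 1 FPKM rest on few reads, and low values in DHA replicate 3 are the least certain.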

Other observations

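Other gene groups, put together after their values were seen, are given as descriptions, since their counts reflect the choice of members; of all tested genes 21.1% were called higher and 19.6% lower. Of 20 tested genes of the circadian clock, 14 were called higher and 1 lower, with a median log2 change of 0.55, and 15 and 1 without DHA replicate 3. PER2, a repressor in the clock loop, was at 1.73, 1.68 and 1.85 FPKM in DMSO and 4.55, 5.23 and 5.99 FPKM in DHA (log2 change 1.18, SE 0.11, adjusted p = 2.45e-05, limma). NFIL3, a repressor of clock output genes, rose by 1.47 (23.5 ± 1.27 to 66.9 ± 6.29 FPKM, n = 3), the heme-binding repressors NR1D1 and NR1D2 by 1.00 and 0.73, and CIART by 1.05. CLOCK was not called (-0.01), and CSNK1E, a kinase of PER proteins, fell by 0.34.

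Of 42 tested actin cytoskeleton genes, 32 were called lower and none higher in both fits, with a median of -0.34. The haematopoietic GTPase RAC2 fell by 0.77 and CORO1A, an actin-binding protein of leukocytes, by 0.72. ACTB fell by 0.74 while the cytoplasmic actin ACTG1 was not called (0.08, adjusted p = 0.302). Among 23 tested lymphocyte surface and adhesion genes, 16 were called lower and 1 higher (17 and 2 without DHA replicate 3). The phosphatase PTPRC (CD45) fell by 0.88 and the integrin chain ITGA4 by 0.84, while ICAM1 rose by 0.49. BMP6 fell by 1.06 (48 ± 1.71 to 22.4 ± 1.21 FPKM), and the BMP decoy receptor BAMBI rose by 0.94. Of 385 tested genes with a ZNF symbol, mostly zinc finger factors, 107 were called higher and 27 lower, with a median of 0.13 (107 and 30 without DHA replicate 3). Of 15 tested mitochondrial aminoacyl-tRNA synthetases, 2 were called higher and 4 lower (1 and 3 without DHA replicate 3).

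Of the stromal markers 2 were tested, and 2 were called higher, or 1 without DHA replicate 3. COL3A1, a collagen, was at 2.36, 1.94 and 1.95 FPKM in DMSO and 6.02, 3.83 and 3.3 FPKM in DHA (log2 change 0.77, adjusted p = 0.0045, limma, and 0.92, adjusted p = 0.00113, without DHA replicate 3). COL1A1, another collagen, was called with all libraries (0.51, adjusted p = 0.0491) and not without DHA replicate 3 (0.50, adjusted p = 0.0565). LUM, a proteoglycan, reached 2.12 FPKM in DHA replicate 1 against at most 0.277 elsewhere. The source of these transcripts was not tested.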
